A study of Homo sapiens with 30 samples.

Results

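The AU-rich element binding proteins examined here are encoded by 6 genes: ZFP36, ZFP36L1, ZFP36L2, ELAVL1, HNRNPD and KHSRP. They were taken by gene symbol from a table of raw read counts, in which they are 6 of 60664 genes, each with 1 entry. The counts come from 30 RNA-seq libraries in 10 groups of 3. All cells were Flp-In T-REx HEK293 cells, a human embryonic kidney line in which tetracycline induces a transgene held at a fixed genomic site. Each of the lines carries GFP-TIA1a, the tagged form of a protein that binds RNA and helps assemble stress granules, either wild-type (WT) or with the mutation of Welander distal myopathy, a muscle disease (WDM). In cytosol the groups of each line were untreated, treated with tetracycline, and treated with tetracycline plus 0.5 mM sodium arsenite for 60 min. In the stress-granule fraction, immunopurified through the GFP tag, the groups of each line were tetracycline alone and tetracycline plus arsenite. Every granule group and every arsenite group therefore carried the induced transgene, and the design has no line without it. Each genotype is 1 cell line, and the lines come from kidney rather than muscle. The labels do not say whether the 3 libraries of a group came from separate cultures, so p-values measure the spread between these libraries, which may be technical.

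AU-rich elements are stretches of A and U bases in the 3′ untranslated regions (3′ UTRs) of short-lived mRNAs, such as those of cytokines, growth factors and immediate-early transcription factors. Proteins that bind them decide how long such an mRNA lasts. ZFP36 (tristetraprolin) and its relatives ZFP36L1 and ZFP36L2 are zinc-finger proteins that bind the element and recruit the CCR4-NOT deadenylase, which starts decay. ELAVL1 (HuR) competes for similar sites and usually stabilises the mRNA. HNRNPD (AUF1) has several isoforms with differing effects, mostly decay, and KHSRP (KSRP) brings in exonuclease activity. TIA1, the transgene of this study, also binds U-rich and AU-rich RNA. Several of these proteins are themselves encoded by mRNAs that carry AU-rich elements.

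The 3′ UTRs of the members' canonical transcripts (GENCODE 44 on GRCh38) were searched on the transcript strand for the heptamer TATTTAT, the core of a ZFP36 binding site. Overlapping matches were counted separately. ZFP36, ZFP36L1 and ZFP36L2 held 3 matches each and ELAVL1 held 5, whereas HNRNPD and KHSRP held 0. Of 19538 human 3′ UTRs, 31.5% held at least 1 match. Among 3′ UTRs within 20% of the member's length, a count as high as the member's was found in 1.41% for ZFP36, 5.10% for ZFP36L1, 4.58% for ZFP36L2 and 3.84% for ELAVL1. KHSRP held 19 matches to TTTTTTT, a count reached by 4.12% of 3′ UTRs of like length. Overlapping matches were counted separately here too, so a longer run of T counts more than once. The sequences below are shown because they hold the kind of element that the members' proteins bind, in the 4 mRNAs that rose in the granule fraction with arsenite in both lines. They are all 3 sites of ZFP36 and, for the other genes, the match farthest from the stop codon. Each runs 5′ to 3′ in the sense of the mRNA over 29 bases, with T for U, and the heptamer at its centre is in capitals. In ELAVL1, whose site shown is the last of a cluster, overlapping heptamers make the longer stretch of capitals, and the neighbouring match near the start of the window is left in lower case.
ZFP36 site a: aatgggcccttTATTTATgacgactttat
ZFP36 site b: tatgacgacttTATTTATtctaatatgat
ZFP36 site c: tgattttatagTATTTATatatattgggt
ZFP36L1: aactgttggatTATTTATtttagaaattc
ZFP36L2: attgtatgtaaTATTTATttcattaattt
ELAVL1: ctatttatgTATTTATTTATtgaagtgtg
The ZFP36 sites lie on the plus strand at chr19:39409181-39409209, chr19:39409196-39409224 and chr19:39409221-39409249. The ZFP36L1 site is at chr14:68788077-68788105, the ZFP36L2 site at chr2:43223212-43223240 and the ELAVL1 site at chr19:7961830-7961858, all on the minus strand. All lie in the 3′ UTR. A match describes the letters only and is not a shown binding site, and 3′ ends other than those of the canonical transcripts were not searched.

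**Figure D1:**
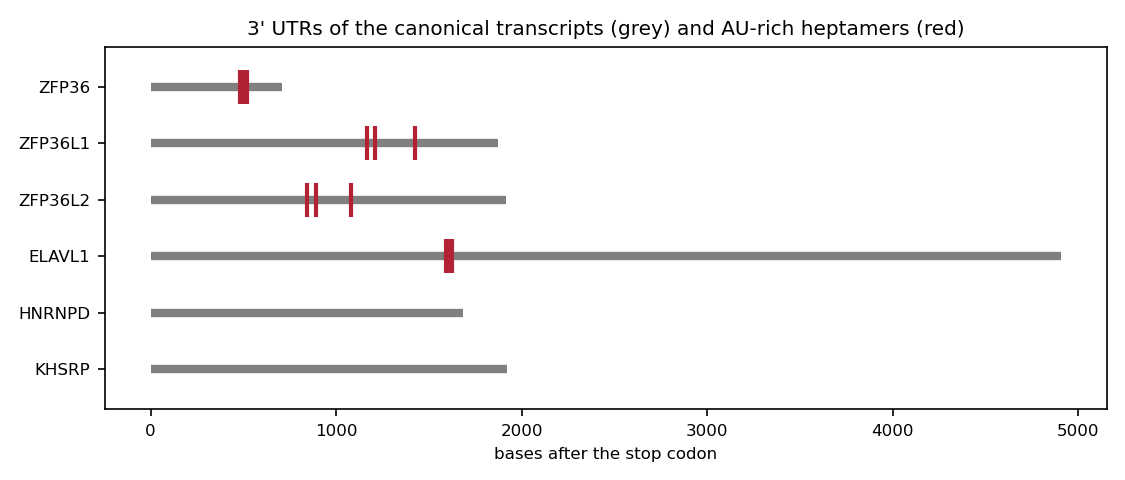
Map of the 3′ UTR of the canonical transcript of each member (grey, bases after the stop codon), with red marks where the 29-base windows around AU-rich heptamers start. The 3 sites of ZFP36 and the cluster in ELAVL1 are each packed closely, those of ZFP36L1 and ZFP36L2 are spread wider, and HNRNPD and KHSRP have no mark.

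The genes are ZFP36 (ENSG00000128016, chr19:39406847-39409412, plus strand), ZFP36L1 (ENSG00000185650, chr14:68787660-68796253, minus), ZFP36L2 (ENSG00000152518, chr2:43222402-43226606, minus), ELAVL1 (ENSG00000066044, chr19:7958573-8005659, minus), HNRNPD (ENSG00000138668, chr4:82352498-82374503, minus) and KHSRP (ENSG00000088247, chr19:6413102-6424811, minus). Some of their exons overlap other genes. ENSG00000287387 covers 22.4% of the ZFP36L2 exons on the opposite strand, ENSG00000269813 covers 7.58% of ELAVL1 and HNRNPD-DT 3.56% of HNRNPD. ENSG00000289626 covers 7.92% of ZFP36L1 and MIR3940 0.426% of KHSRP on the same strand. The libraries keep strand, but the strand setting of the counting is not given in the sources used here, so reads of antisense partners may be included. KHSRP also has a processed pseudogene, KHSRPP1, with which it may share reads.

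Library totals ran from 5906167 to 27419145 counts. The labels call the cells epithelial. In cytosol the epithelial markers KRT8, KRT18 and EPCAM averaged 139.8, 118 and 107 CPM (counts scaled to the library total), CDH1 7.43 CPM, and the kidney lineage factors PAX2 and LHX1 3.52 and 1.66 CPM. CDH2 and VIM, which mark mesenchymal cells as well, averaged 203 and 720.3 CPM. Of the markers of other cell types, 10 of 11 (blood, endothelial, fibroblast, liver and muscle cells) averaged under 1 CPM in cytosol. The exception was COL1A1 at 2.57 CPM. The muscle markers MYH7 and DES averaged 0.00718 and 0.366 CPM in cytosol, so the tissue affected in Welander distal myopathy is not represented. Replicate 1 of WT with tetracycline in cytosol stood furthest from its group over all genes, with a root-mean-square log2 distance of 0.483. Replicate 1 of WDM with tetracycline in the granule fraction was next, at 0.477. In the WDM tetracycline cytosol group, replicates 1 and 2 lay 0.366 and 0.400 from the other libraries. Results that rest on these libraries are given with and without them. The nuclear RNA NEAT1 ranged from 46.7 to 266 CPM in cytosol libraries and from 1377 to 2623 CPM in granule libraries. Its part in the differences between fractions was not tested.

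All 6 members passed the filter on low counts in every fit. The smallest counts were those of ZFP36, with 9 to 28 reads in the untreated cytosol libraries, so its baseline carries the widest counting error. Per kilobase of merged exon, levels in untreated WT cytosol were 34.1 ± 2.29 CPM for KHSRP (SD, n = 3, as for all means), 19.5 ± 0.908 for ELAVL1 and 12.1 ± 1.08 for HNRNPD. The zinc-finger genes were lower, with 3.81 ± 0.241 CPM per kilobase for ZFP36L2, 1.21 ± 0.0209 for ZFP36L1 and 0.588 ± 0.109 for ZFP36. These neighbours did not overlap. The order of ELAVL1 and HNRNPD depends on the length used, since per kilobase of canonical transcript HNRNPD (27.6 CPM) was above ELAVL1 (22.4 CPM). In WT granules with arsenite ZFP36 reached 4.62 ± 1.8 CPM per kilobase of exon beside 4.52 ± 0.545 for ZFP36L1. On that length they do not differ beyond their spread. Per kilobase of canonical transcript ZFP36 was lower, at 5.23 CPM beside 9.69 CPM for ZFP36L1. In WT granules with tetracycline alone HNRNPD (17.9 ± 3.14) and ELAVL1 (15.3 ± 2.52) likewise did not differ beyond their spread per kilobase of exon. Per kilobase of canonical transcript HNRNPD was higher there, at 40.9 CPM beside 17.5 CPM for ELAVL1.

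**Figure D2:**
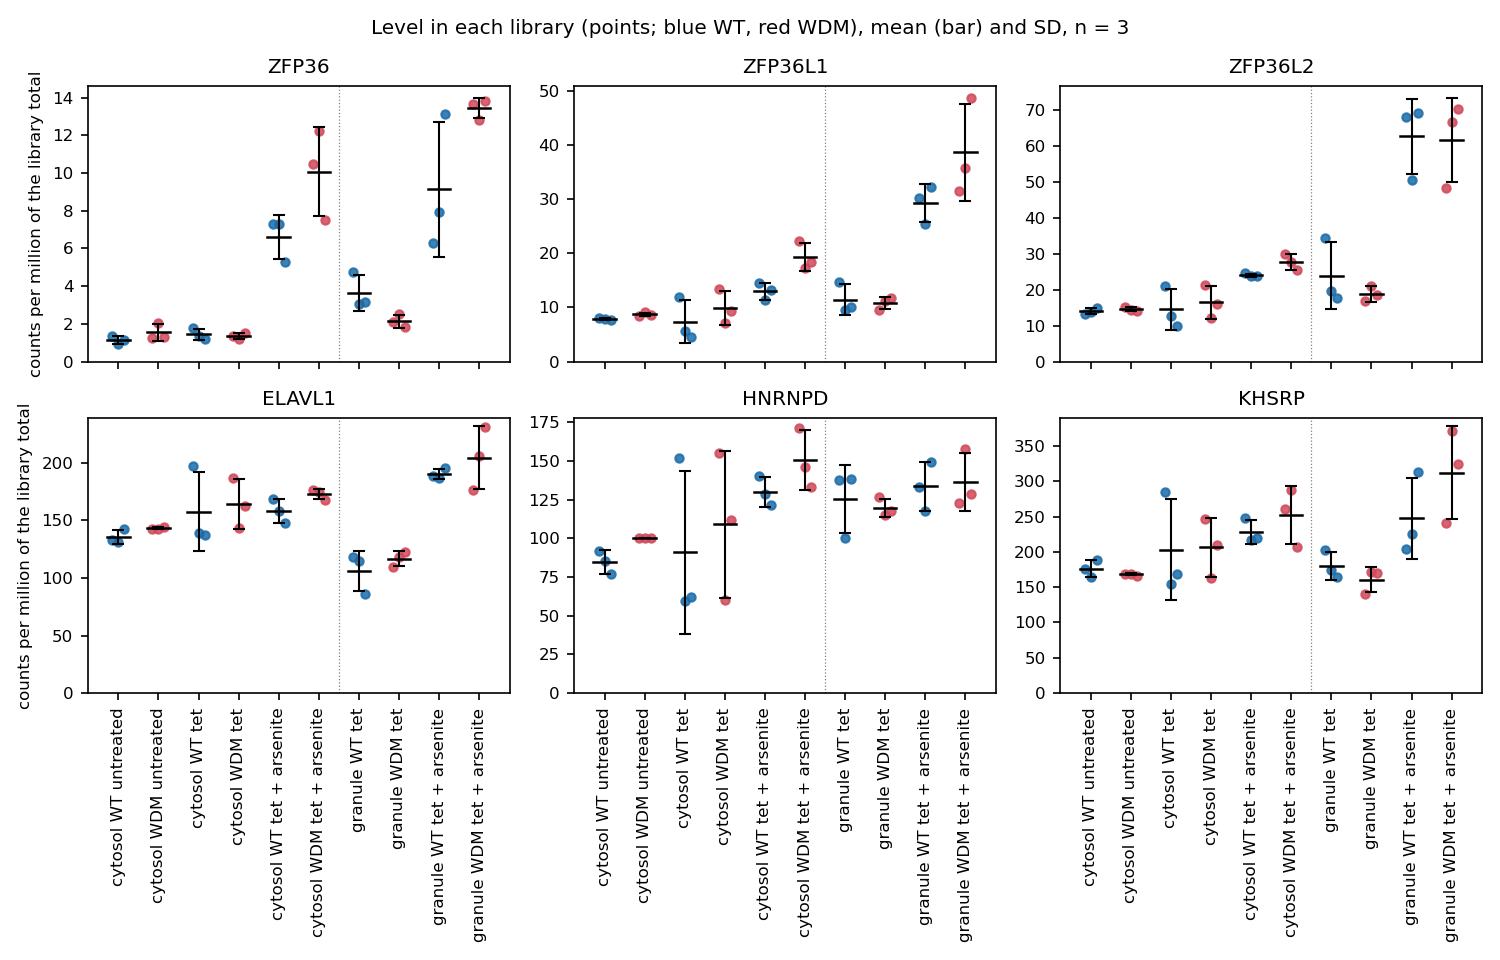
CPM of the library total for each member in every library (points, blue WT and red WDM), with group mean (bar) and SD (n = 3); cytosol groups stand left of the dotted line and granule groups right of it. ZFP36 sits between 0.947 and 2.06 CPM in all 12 cytosol libraries without arsenite and between 5.26 and 12.2 in the 6 with it.

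Switching on the transgene was compared first, to show what tetracycline alone did. None of the 6 mRNAs was called in either line, where a call is an adjusted p under 0.05 in edgeR's quasi-likelihood test with Benjamini-Hochberg adjustment over all genes tested. At an unadjusted p, ELAVL1 was the lone member under 0.05, at 0.0242 in WT and 0.0465 in WDM. DESeq2 called 0 members as well. Counts are relative to each library's total, so a change in the number of cells or in RNA per cell cannot be seen in these bulk extracts. The background was low, with 5.31% of 16670 genes called in WT and 6.3% in WDM. For HNRNPD the tetracycline groups were too scattered to compare. Its WT libraries held 152, 59.2 and 61.8 CPM and its WDM libraries 155, 60.1 and 112 CPM, against 76.9 to 91.9 CPM in untreated WT and 100.0 to 100.4 CPM in untreated WDM. HNRNPD was thus above every untreated library in replicate 1 and below every untreated library in replicate 2, in both lines. ZFP36L1 had a similar spread in WT, at 11.9, 5.57 and 4.54 CPM. Without replicate 1 of both tetracycline cytosol groups, ZFP36L1 fell by 0.56 on the log2 scale in WT (edgeR adjusted p = 0.0389).

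The response of the zinc-finger decay factors to arsenite was the clearest change among the members in cytosol. ZFP36, ZFP36L1 and ZFP36L2 rose in both lines, and ZFP36 rose most, 4.11-fold in WT and 6.82-fold in WDM. ELAVL1, HNRNPD and KHSRP were not called. That is 3 of 6 members called higher and 0 lower in each line, while 13.7% of all genes tested were called higher and 15.4% lower in WT, and 14.1% and 14.8% in WDM. The number of genes called in either direction fell from 4838 to 2440 without WT tetracycline replicate 3 and from 4804 to 2490 without WDM tetracycline replicate 2. The median log2 fold change of the 6 members was 0.50 in WT and 0.53 in WDM, against -0.02 and -0.0035 over all genes. With scaling by library size alone, the all-gene medians moved by more than 0.1 in WT, to 0.11. Of all calls, 47.1% were higher in WT and 76.7% with that scaling, and in WDM 48.8% and 66.8%. The members' calls and directions were as before under it.

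ZFP36 held 1.77, 1.37 and 1.22 CPM in WT cytosol with tetracycline and 7.28, 7.30 and 5.26 CPM with arsenite. In WDM cytosol the values were 1.38, 1.2 and 1.54 CPM without and 10.5, 12.2 and 7.52 CPM with arsenite. Every arsenite library lay above every library without it. The log2 fold change was 2.04 (SE 0.24, edgeR adjusted p = 1.47e-05) in WT and 2.77 (SE 0.23, adjusted p = 3.14e-07) in WDM, and it was called under every alternative tried. Against untreated cells, with the same arsenite libraries, it was 2.40 (SE 0.26) in WT and 2.64 (SE 0.22) in WDM.

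ZFP36L1 rose from 11.9, 5.57 and 4.54 CPM to 14.5, 11.3 and 13.1 CPM in WT, where 1 arsenite library lay below the highest library without it. The log2 change was 0.69 (SE 0.24, edgeR adjusted p = 0.0379). In WDM it rose from 13.3, 7.12 and 9.37 CPM to 22.2, 17.2 and 18.4 CPM, with no overlap, by 0.89 (SE 0.23, adjusted p = 0.0083). ZFP36L2 held 21.0, 12.7 and 9.89 CPM without and 24.6, 23.7 and 23.7 CPM with arsenite in WT, a log2 change of 0.60 (SE 0.18, adjusted p = 0.0209). In WDM it held 21.3, 12.1 and 16.1 CPM without and 30.1, 27.7 and 25.4 CPM with arsenite, a change of 0.68 (SE 0.18, adjusted p = 0.0100). The ZFP36L2 groups did not overlap in either line. Both WT calls are fragile. They were lost without WT tetracycline replicate 2 or 3, where ZFP36L1 was 0.54 or 0.46 and ZFP36L2 0.52 or 0.40, and without WT arsenite replicate 1 (0.61 and 0.58). The ZFP36L1 call was also lost without WT arsenite replicate 3 (0.68, adjusted p = 0.0749) and the ZFP36L2 call without replicate 2 (0.61, adjusted p = 0.0517). In a fit of only the 6 libraries compared, neither was called, with edgeR adjusted p = 0.161 for ZFP36L1 and 0.0957 for ZFP36L2. In WDM the ZFP36L2 call was lost without tetracycline replicate 2 (0.52, adjusted p = 0.0623).

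The stabiliser ELAVL1 and the decay factors HNRNPD and KHSRP had smaller cytosol differences. ELAVL1 held 197, 139 and 137 CPM in WT with tetracycline and 169, 158 and 148 CPM with arsenite, a log2 difference of -0.12 (SE 0.10, edgeR adjusted p = 0.382). In WDM the difference was -0.01 (SE 0.10). HNRNPD held 140, 129 and 121 CPM with arsenite in WT and 171, 146 and 133 CPM in WDM. The groups overlapped in both lines, although 1 WDM arsenite library (171 CPM) was above every tetracycline library, and the log2 differences of 0.40 (SE 0.30) and 0.38 (SE 0.30) were not called. Without replicate 1 of both tetracycline cytosol groups, a choice made after seeing the data, HNRNPD was 0.94 (edgeR adjusted p = 0.000148) in WT and 0.71 (0.00141) in WDM. KHSRP was 0.33 (adjusted p = 0.0235) and 0.35 (0.0186) under the same choice, against 0.05 (SE 0.18) and 0.20 (SE 0.18) with all libraries. In WT, leaving out tetracycline replicate 1 alone was enough for the HNRNPD call (0.94, adjusted p = 0.0077). Other alternatives gave lower values. Over all of them HNRNPD ran from 0.18 to 0.94 in WT and from 0.098 to 0.72 in WDM. KHSRP ran from -0.10 to 0.33 in WT and from 0.07 to 0.35 in WDM.

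Arsenite with tetracycline was also compared with untreated cells, whose libraries lie close together. In both lines all 6 members had every treated library above every untreated one, as did 33.3% of all genes tested in WT and 31.5% in WDM. KHSRP held 176, 164 and 188 CPM in untreated WT and 248, 216 and 220 CPM with arsenite, and HNRNPD 91.9, 85.6 and 76.9 CPM against 140, 129 and 121 CPM. In the fit of all 18 cytosol libraries 2 members were called higher in WT (ZFP36 and ZFP36L2) and 4 in WDM (ZFP36, ZFP36L1, ZFP36L2 and KHSRP), where 15.2% and 19% of all genes were. Of all calls, 47.1% were higher in WT and 64.3% with scaling by library size alone, and in WDM 48.7% and 58.9%. In a fit of only the 6 libraries compared, all 6 members were called in WT, including HNRNPD at 0.55 (edgeR adjusted p = 1.46e-06) and ELAVL1 at 0.15 (adjusted p = 0.0396). In WDM all 6 were called in that fit too. Of all genes, that fit called 24.8% higher in WT and 20.6% in WDM. The KHSRP call in WDM (0.52, SE 0.18, adjusted p = 0.0310 in the larger fit) was lost when any one of the 3 untreated WDM libraries (0.51 to 0.52) or arsenite replicate 1 (0.52) or 2 (0.39) was left out, and without the low-count filter (0.50, adjusted p = 0.130). This comparison holds tetracycline and arsenite together and cannot tell them apart.

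The lines were compared within each cytosol treatment, to ask whether the disease mutation went with other levels of these mRNAs. In untreated and in tetracycline-treated cells 0 of 6 members were called, by edgeR and by DESeq2, with 0 under an unadjusted p of 0.05. Of all genes, 9.78% and 12.6% were called. ZFP36L1 and HNRNPD in untreated cells had no overlap between the lines, like 44.1% of all genes (HNRNPD held 76.9 to 91.9 CPM in WT, 100.0 to 100.4 CPM in WDM). The HNRNPD difference of 0.21 (SE 0.31) was called only in a fit of those 6 libraries (0.20, edgeR adjusted p = 0.00568). Without WT tetracycline replicate 1, the tetracycline comparison called ZFP36L1 at 0.85 (edgeR adjusted p = 0.00447), HNRNPD at 0.75 (0.0381) and ZFP36L2 at 0.44 (0.0497), so this result turns on that library. With arsenite, ZFP36 was higher in WDM by 0.61 (SE 0.18, adjusted p = 0.0379), where 10.4% of all genes were called. Each WDM library (7.52 to 12.2 CPM) was above each WT library (5.26 to 7.30 CPM). That call was lost when any of the 3 WT arsenite libraries was left out (0.47 to 0.68), and without WDM arsenite replicate 1 (0.61) or 2 (0.42). DESeq2 gave an adjusted p of 0.115 and the fit of only the 6 libraries 0.0782. ZFP36L1 and ZFP36L2 also had no overlap between the lines with arsenite, like 28.3% of all genes, and were not called, at 0.56 (SE 0.22, edgeR adjusted p = 0.127) and 0.20 (SE 0.18, adjusted p = 0.524). The ZFP36L1 difference was called with the replicate block (adjusted p = 0.0317), without the low-count filter (0.0063) and in the fit of only the 6 libraries (0.0245).

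The difference between the lines in the arsenite response itself was then tested. It was 0.73 (SE 0.35) for ZFP36 in cytosol, with an unadjusted p of 0.0523, and between -0.02 and 0.20 for the other members. Called genes made up 0% of the 16670 tested by edgeR, with 331 under an unadjusted p of 0.05 and 0 called by DESeq2. For the response to tetracycline, 0 members and 0.018% of all genes differed between the lines (3 genes by edgeR, 749 at an unadjusted p under 0.05, and 11 by DESeq2). The larger ZFP36 increase in WDM cytosol is therefore not shown to differ from that in WT.

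**Figure D3:**
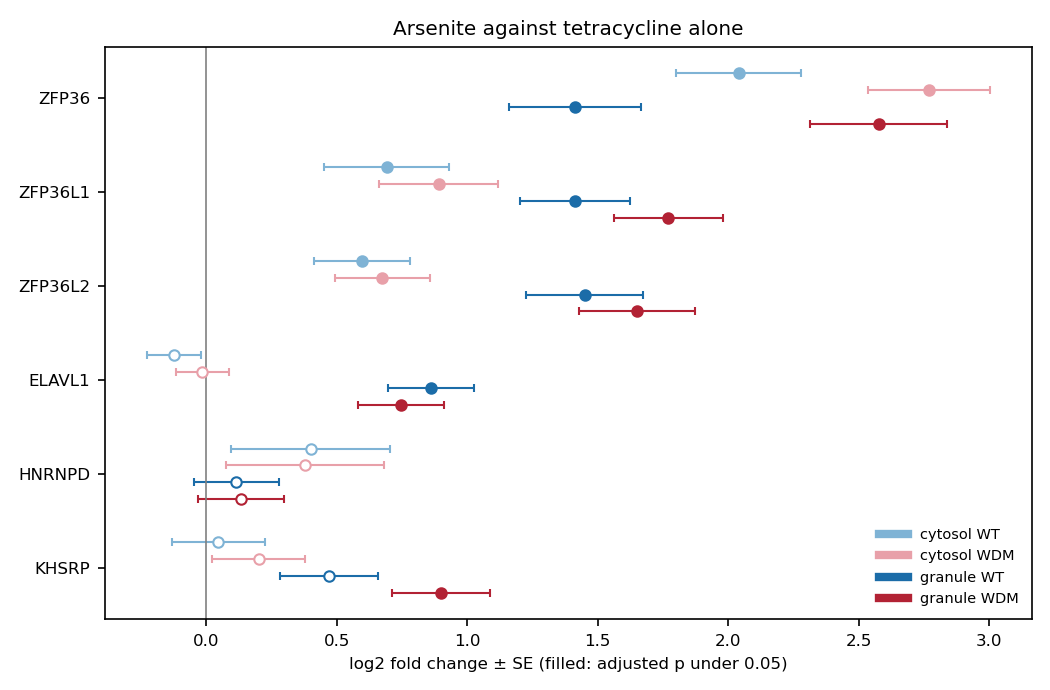
Log2 fold change with arsenite against tetracycline alone (points, with SE) for each member in cytosol (light) and granule fraction (dark) of WT (blue) and WDM (red); filled points have an adjusted p under 0.05. The zinc-finger genes are filled in all 4 comparisons, ELAVL1 only in granules, KHSRP only in WDM granules and HNRNPD in none.

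In the granule fraction arsenite was followed by higher levels of most of these mRNAs. ZFP36, ZFP36L1, ZFP36L2 and ELAVL1 rose in both lines, and KHSRP was called in WDM. ZFP36L1 and ZFP36L2 rose 2.67-fold and 2.73-fold in WT and 3.41-fold and 3.14-fold in WDM. That is 4 of 6 members called higher in WT, where 16.5% of 18366 genes were called higher and 14.1% lower, and 5 of 6 in WDM, where 18.7% were higher and 17.7% lower. Without WT tetracycline replicate 3, 3157 genes were called in WT granules where 5620 were with all libraries. No member was lower. The members' median log2 change was 1.14 in WT and 1.28 in WDM, against -0.03 and 0.01 over all genes. All 9 of these calls were kept under every alternative, each library left out in turn included. Mitochondrial reads were 0.119% to 0.433% of granule libraries without arsenite and 0.0536% to 0.167% with it, and library totals were 5906167 to 25176605 counts without and 18864056 to 27419145 with it. The part of either in these changes was not tested.

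ZFP36 held 4.74, 3.05 and 3.14 CPM in WT granules without arsenite and 6.31, 7.96 and 13.1 CPM with it. In WDM granules it went from 2.08, 2.50 and 1.84 CPM to 13.7, 12.8 and 13.8 CPM. The groups did not overlap, and the WDM values were tightly grouped on both sides. The log2 change was 1.41 (SE 0.25, edgeR adjusted p = 0.000195) in WT and 2.58 (SE 0.26, adjusted p = 1.39e-07) in WDM. The difference of these responses, a comparison added after seeing the values, was 1.16 (SE 0.37, unadjusted p = 0.00361, edgeR adjusted p = 0.254). Called genes again made up 0% of the genes tested, with 2329 under an unadjusted p of 0.05 and 0 called by DESeq2. Between the lines in granules, ZFP36 was -0.70 (SE 0.29, adjusted p = 0.190) in WDM against WT with tetracycline and 0.47 (SE 0.22, adjusted p = 0.193) with arsenite. Neither was called, as for the other 5 members, where 5.55% and 7.95% of all genes were. At an unadjusted p, ZFP36 was the lone member under 0.05 in each (0.0236 and 0.0443), and DESeq2 called 0 members. Without WT arsenite replicate 3, the library at 13.1 CPM, the arsenite difference was 0.84 (edgeR adjusted p = 0.0310).

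ZFP36L1 rose from 14.7, 9.53 and 10.0 CPM to 30.2, 25.3 and 32.2 CPM in WT granules, by 1.41 on the log2 scale (SE 0.21, edgeR adjusted p = 2.71e-05). In WDM granules it rose from 9.52, 11.2 and 11.6 CPM to 31.4, 35.8 and 48.6 CPM, by 1.77 (SE 0.21, adjusted p = 7.10e-07). The arsenite libraries stood well clear of the others in both lines. ZFP36L2 went from 34.5, 19.8 and 17.6 CPM to 68.3, 50.7 and 69.3 CPM in WT, by 1.45 (SE 0.22, adjusted p = 4.00e-05). In WDM it went from 16.9, 21.1 and 18.6 CPM to 48.5, 66.7 and 70.4 CPM, by 1.65 (SE 0.22, adjusted p = 4.44e-06). ZFP36L2 had the highest CPM of the zinc-finger genes in every group.

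ELAVL1 held 118, 114 and 86.1 CPM in WT granules without arsenite and 189, 187 and 195 CPM with it. In WDM granules it held 109, 118 and 123 CPM without and 176, 206 and 231 CPM with arsenite. No library of one group reached the other. The log2 change was 0.86 (SE 0.17, edgeR adjusted p = 0.000370) in WT and 0.75 (SE 0.16, adjusted p = 0.000912) in WDM. KHSRP moved from 203, 174 and 165 CPM to 204, 226 and 313 CPM in WT, with groups that just do not overlap. The difference was 0.47 (SE 0.19, adjusted p = 0.0561). It was called in 4 of 12 alternatives, among them without arsenite replicate 2 (0.56, adjusted p = 0.0398) and by DESeq2 (adjusted p = 0.0484). In WDM it rose from 140, 172 and 170 CPM to 241, 371 and 324 CPM, by 0.90 (SE 0.19, adjusted p = 0.000532). The KHSRP difference between the lines' responses was 0.43 (SE 0.26, adjusted p = 0.499), so the call in one line alone does not show that the lines differ. HNRNPD held 138, 100 and 139 CPM without and 133, 118 and 150 CPM with arsenite in WT granules, at 0.12 (SE 0.16). In WDM granules its difference was 0.13 (SE 0.16), and the groups overlapped in both lines.

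The granule fraction was next set against cytosol within each line and treatment, to ask which of these mRNAs were over-represented there. Most genes were called in this comparison, so a call by itself says little about a member. In tetracycline-treated cells ZFP36 and ZFP36L2 were higher in WT granules, where 39.5% of 18141 genes were higher and 36.2% lower, and ELAVL1 was lower in granules of both lines. In WDM 0 members were higher and 1 lower, against 35.8% and 35.3% of all genes. With arsenite ZFP36L1 and ZFP36L2 were higher in granules of both lines and 0 members were lower. Of all genes, 35% were then higher and 35.5% lower in WT, and 36.3% and 35.7% in WDM.

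ZFP36L1 in WT cells with arsenite held 14.5, 11.3 and 13.1 CPM in cytosol and 30.2, 25.3 and 32.2 CPM in granules, a log2 difference of 1.18 (SE 0.24, edgeR adjusted p = 9.71e-05). For ZFP36L2 the difference was 1.40 (SE 0.24, adjusted p = 9.69e-06), from 23.7 to 24.6 CPM in cytosol and 50.7 to 69.3 CPM in granules. In WDM the differences were 0.95 (SE 0.23) and 1.10 (SE 0.23). The fractions did not overlap in these 4 cases. ZFP36 was higher in WT granules by 1.21 (SE 0.30, adjusted p = 0.000592) with tetracycline alone. With arsenite its difference was 0.47 (SE 0.22, adjusted p = 0.0572) in WT and 0.34 (SE 0.21, adjusted p = 0.146) in WDM, neither called, and without arsenite in WDM it was 0.63 (SE 0.32, adjusted p = 0.0774). ZFP36 has the shortest transcript of the members. With each library's trend with transcript length removed, these 3 uncalled values were 1.13 (edgeR adjusted p = 4.70e-05), 0.92 (0.000286) and 1.16 (0.00170). The ZFP36L2 difference in WT with tetracycline (0.64, SE 0.25, adjusted p = 0.0227) rested on single libraries and was lost without WT granule replicate 1 (0.34), cytosol replicate 2 (0.55) or cytosol replicate 3 (0.43), and in a fit of only the groups compared (0.71, adjusted p = 0.0566). Without WT tetracycline cytosol replicate 1, ZFP36L1 was 1.03 and HNRNPD 0.94 in WT, both called (adjusted p = 0.000632 and 0.000427). Some uncalled differences were called without 1 library: ZFP36 in WT with arsenite without granule replicate 1 (0.65) or 2 (0.59), ZFP36 in WDM with arsenite without cytosol replicate 2 (0.53), and KHSRP in WDM with tetracycline without cytosol replicate 2 (-0.51).

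**Figure D4:**
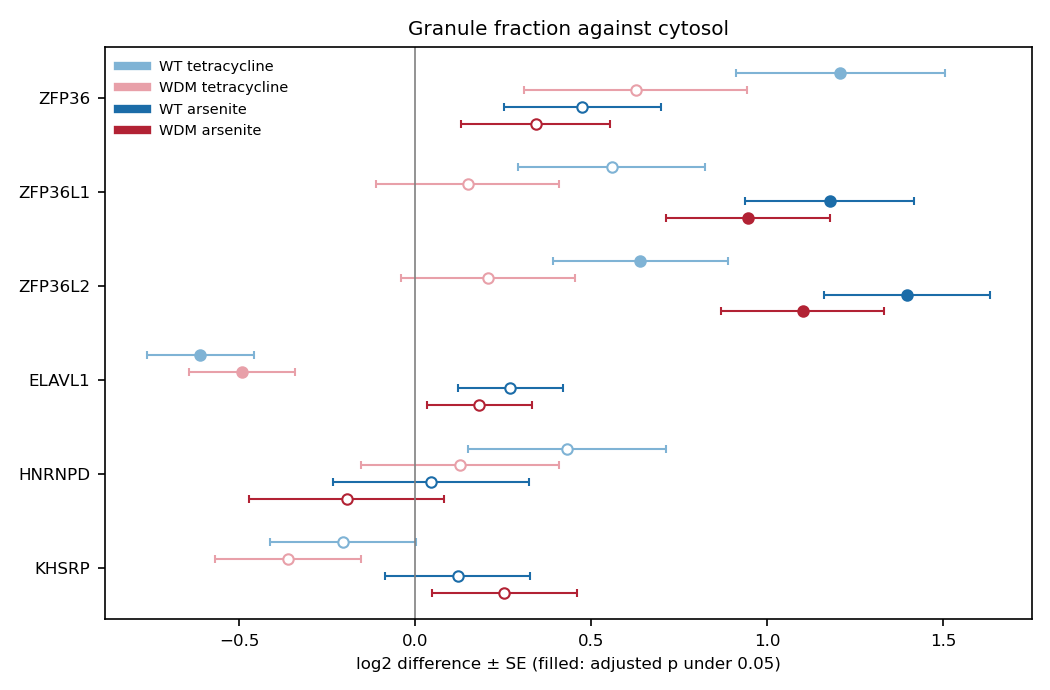
Log2 difference of the granule fraction against cytosol (points, with SE) for each member, with tetracycline alone (light) and with arsenite (dark), WT in blue and WDM in red; filled points have an adjusted p under 0.05. ELAVL1 lies at -0.61 and -0.49 without arsenite and at 0.27 and 0.18 with it.

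In the fit of 24 libraries, only ELAVL1 of the 6 members was called in either line for a changed fraction difference with arsenite. Without arsenite its mRNA was lower in granules than in cytosol, 86.1 to 118 CPM against 137 to 197 CPM in WT and 109 to 123 CPM against 144 to 187 CPM in WDM. The log2 differences were -0.61 (SE 0.15, edgeR adjusted p = 0.000642) and -0.49 (SE 0.15, adjusted p = 0.00475). With arsenite the order of the fractions turned, at 187 to 195 CPM in granules against 148 to 169 CPM in cytosol in WT and 176 to 231 against 168 to 176 CPM in WDM. Those differences of 0.27 (SE 0.15) and 0.18 (SE 0.15) were not called. The change of the difference was 0.88 (SE 0.21, adjusted p = 0.00248) in WT, where 31.4% of all genes were called and the all-gene median was -0.21. In WDM it was 0.67 (SE 0.21, adjusted p = 0.0202), with 24.2% of genes called and an all-gene median of -0.17. These shares count both directions. Of the calls over all genes, 38.2% were higher in WT and 31.7% in WDM. The WT call was kept in all alternatives. The WDM call was lost without WDM tetracycline replicate 1 in cytosol (0.56, adjusted p = 0.0714) or in granules (0.58, adjusted p = 0.0506), and without WDM arsenite granule replicate 3 (0.58, adjusted p = 0.0721). ZFP36L2 came near in WDM, at 0.89 (SE 0.34, adjusted p = 0.0553), and was called in 9 of 20 alternatives. Of these 9, 2 left out a single library, and DESeq2 was another (adjusted p = 0.0334). Single libraries decided several uncalled values. ZFP36L2 in WT (0.76, SE 0.34) was called without tetracycline cytosol replicate 3 (0.96), tetracycline granule replicate 1 (1.06) or arsenite granule replicate 2 (0.92). In WDM, ZFP36L1 (0.80, SE 0.35) and ZFP36L2 were called without tetracycline cytosol replicate 2 (0.99 and 1.08) or arsenite granule replicate 1 (0.98 and 1.09), and KHSRP (0.62, SE 0.29) without the latter (0.82). HNRNPD in WT was -0.39 (SE 0.40), and -0.93 (adjusted p = 0.0162) without tetracycline cytosol replicate 1. ZFP36 in WT was -0.73 (SE 0.37), and -1.09 (adjusted p = 0.0184) without granule arsenite replicate 3. Between the lines, the members' fraction differences differed by -0.58 (SE 0.44, ZFP36) to 0.12 (SE 0.21, ELAVL1) with tetracycline. With arsenite the range was -0.30 (SE 0.33, ZFP36L2) to 0.13 (SE 0.29, KHSRP). The line was not shown to go with the fraction difference for any member. Called were 0 of 6 members and 0.00551% of all genes, both with tetracycline and with arsenite. Over all genes that is 1 call by edgeR in each, 929 and 1200 at an unadjusted p under 0.05, and 2 and 1 by DESeq2, while at an unadjusted p under 0.05 there were 0 members.

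Across the 10 group means of log2 CPM, Pearson's r was 0.98 between ZFP36L1 and ZFP36L2, 0.92 between ZFP36 and ZFP36L1 and 0.90 between ZFP36 and ZFP36L2. Other pairs came close, such as ZFP36 with HNRNPD at 0.89, ELAVL1 with KHSRP at 0.85 and ZFP36 with KHSRP at 0.85. ELAVL1 and HNRNPD were the least alike pair, at 0.28. These correlations describe 10 points that share treatments and carry no test. Of 12406 genes of sufficient level, those most like ZFP36 were EGR3 (r = 0.99) and EGR1 (0.98), immediate-early transcription factors, and BAG3 (0.98), a co-chaperone induced by proteotoxic stress. The closest to ZFP36L1 were KLHL18, ZBTB5 and TICAM1, to ZFP36L2 ETV3, ZSCAN22 and DHX33, and to ELAVL1 AK4, UBE2Z and EIF1AD. The closest to HNRNPD was WASL (r = 0.99), ahead of PTP4A2 and RFPL3S. Those closest to KHSRP were the carboxypeptidase gene CPM, GLYR1 and PROSER2.

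Other genes of the pathway were taken from lists of binding proteins, decay enzymes, regulators and targets. Their counts stand beside 13.7% of all genes called higher and 15.4% lower in WT cytosol, 14.1% and 14.8% in WDM cytosol, 16.5% and 14.1% in WT granules, and 18.7% and 17.7% in WDM granules. The first list holds 31 other RNA-binding proteins, TIA1 included, and not all of them bind AU-rich or U-rich elements. In cytosol 26 were tested, of which 6 rose and 1 fell with arsenite in WT and 6 rose and 0 fell in WDM. In granules 10 rose and 3 fell of 27 in WT, and 9 rose and 7 fell in WDM. The RNase ZC3H12A (Regnase-1) rose in cytosol by 0.75 in WT and 0.94 in WDM (SE 0.12 each), and TIAL1, the paralog of TIA1, by 0.63 and 0.79. The TIAL1 rise is against tetracycline alone, where its level was below that of untreated cells. In WT cytosol TIAL1 averaged 63.6 CPM untreated, 35.1 CPM with tetracycline and 59.3 CPM with arsenite. In WDM cytosol it averaged 68.9, 40.2 and 73.9 CPM. In granules ZC3H12A rose by 0.58 and 1.25, whereas TIAL1 fell by 0.60 and 0.52. The list's median was 0.07 and 0.15 in cytosol and 0.05 and 0.23 in granules, in WT and WDM, beside all-gene medians of -0.02, -0.0035, -0.03 and 0.01.

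Of 32 genes for the decay machinery that these proteins recruit, 31 were tested. In cytosol 1 rose and 4 fell in WT and 2 rose and 3 fell in WDM, with PAN3, a subunit of a deadenylase, up by 0.53 (SE 0.14) and 0.60 (SE 0.14). In granules 7 rose and 8 fell in WT and 7 rose and 12 fell in WDM. The list's medians were -0.06 in both cytosols, 0.10 in WT granules and -0.29 in WDM granules. The decapping enzyme DCP2 rose in granules of both lines, by 1.55 in WT and 0.78 in WDM. The exosome subunit EXOSC8 fell by 0.60 and 1.22 there, and EXOSC9 fell by 0.72 and 1.16. EXOSC6 went the other way, up by 0.83 in WT granules (edgeR adjusted p = 0.00406). Its 0.48 in WDM granules was not called (adjusted p = 0.0705). Of 30 kinases, phosphatases and 14-3-3 proteins that act on the members, 29 were tested. In cytosol 2 rose and 4 fell in WT and 2 rose and 3 fell in WDM, and in granules 11 rose and 3 fell in WT and 7 rose and 4 fell in WDM. The medians were -0.09 and -0.04 in cytosol and 0.08 and 0.08 in granules. DUSP1, the phosphatase that switches off p38 signalling, led them in cytosol, at 1.61 (SE 0.11) in WT and 1.65 (SE 0.11) in WDM. MAPKAPK2 (MK2), the kinase that phosphorylates ZFP36, rose by 0.90 (SE 0.15) in WDM granules, with 0.37 (edgeR adjusted p = 0.0578) in WT granules.

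The last list holds targets. Of 34 mRNAs described with AU-rich elements, 28 were tested in cytosol, of which 12 rose and 1 fell in WT and 17 rose and 1 fell in WDM. In granules 19 rose and 1 fell of 29 in each line. Its median log2 change was 0.42 in WT and 0.62 in WDM in cytosol, and 0.79 and 0.86 in granules, against the all-gene medians given above. The immediate-early factor EGR1 went from 1.49 to 112 CPM in WT cytosol and from 1.56 to 170 CPM in WDM cytosol, log2 changes of 6.07 (SE 0.21) and 6.73 (SE 0.21). FOS rose by 4.93 (SE 0.26) and 5.52 (SE 0.27) in cytosol, and by 3.66 (SE 0.26) and 4.22 (SE 0.26) in granules. The list holds many immediate-early genes, and DUSP1 is counted in it as well as among the regulators.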

How the data were processed

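RNA was sequenced from cytosol and stress-granule fractions. Raw read counts per gene were deposited by the authors as 1 table of 30 libraries. The submitters' processing notes name Trimmomatic, STAR, Picard, featureCounts and GRCh38, without roles or settings. Their versions, the annotation release and the strand setting are not given in the sources used here. Libraries were strand-specific and depleted of rRNA (TruSeq kit, Ribo-Zero Gold), per the labels' protocols.

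Counts were tested with edgeR 4.0.16 (R 4.3.3; robust quasi-likelihood F-test, TMM factors, filterByExpr with a minimum count of 10 and total of 15, group means) over all genes, with Benjamini-Hochberg adjustment, at 0.05. Fits held the 18 cytosol libraries, the 12 granule libraries, or the 24 tetracycline-treated libraries of both fractions. There were 23 comparisons in the design and 1 added. CPM in the text are counts scaled to the library total, without TMM, so their ratios can differ from fitted changes. A count of 3, taken as a floor, is 0.109 to 0.508 CPM. It does not bound the counting error of larger counts. Values of genes are log2 fold changes with SE. Per-kilobase levels, 3′ UTRs and sites come from GENCODE 44. Of the identifiers, 60463 were found there. The test was checked on simulated counts. Each library was counted once. Replicate pairs differed by more than sampling noise (chi-square per degree of freedom 1.63 to 40.7), which does not show whether they came from separate cultures.

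Alternatives were scaling by RLE factors or by library size alone, testing genes without the low-count filter, a replicate block, each library left out, only the groups compared, DESeq2 1.42.0, the transcript length trend removed for fractions, and, added after seeing the data, leaving out replicate 1 of both tetracycline cytosol groups. Same-numbered libraries correlated in their deviations above 0.1 in every pair for 2 of 17 comparisons (arsenite in WDM granules, 0.141 to 0.532, and granule against cytosol in WDM with arsenite, 0.388 to 0.699), and the block changed no member's call there. The members, lists, tests and rules were chosen with earlier results of these data known. Named genes are the members, the 3 genes most like each by Pearson's r over group means (at least 5 CPM in 1 group), and up to 3 called genes of largest change per list and arsenite comparison. Other steps used pandas 2.3.3 and numpy 2.4.6 in Python 3.11.15, with matplotlib 3.10.9 for figures.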

Additional observations from a re-analysis of the deposited data

Results flagged for a closer look

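ELAVL1, the mRNA of the stabilising protein HuR, had a different arsenite response in the granule fraction than in cytosol, by a test of the difference itself, in both lines. The change of the granule-to-cytosol difference was 0.88 on the log2 scale in WT (edgeR adjusted p = 0.00248) and 0.67 in WDM (adjusted p = 0.0202). In the separate fits of each fraction, the arsenite response in WT was 0.86 in granules and -0.12 in cytosol. In WDM it was 0.75 and -0.01. The tested change is from the fit of 24 libraries of both fractions, so it need not equal the difference of these responses. The WDM value was not called without any one of 3 libraries, and over all genes the same test called 31.4% in WT and 24.2% in WDM, in either direction. Of those calls, 38.2% were higher, as for ELAVL1, in WT and 31.7% in WDM.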

How the results depend on the processing

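Of 32 calls of members, 25 were kept under every alternative and 7 were lost under at least 1. None reversed, and 33 of 112 uncalled values were called under some alternative. The numbers in this paragraph are members called, against the number reported, given where they differ by more than 1.5-fold. Alike counts can hide a change of members, as in a fit of only the groups compared for the lines in arsenite cytosol. There ZFP36 lost its call and ZFP36L1 became called. In a fit of only the groups compared, they were 1 (3) for arsenite in WT cytosol, 6 (2) for WT arsenite against untreated, 1 (0) for the untreated lines, 2 (1) for granule against cytosol in WDM with tetracycline, and 2 (1) for arsenite by fraction in WDM. Without replicate 1 of both tetracycline cytosol groups they were 1 (0) for tetracycline in WT, 5 (3) for arsenite in each cytosol, 1 (0) for the lines with tetracycline, 5 (3) and 2 (1) for granule against cytosol with tetracycline in WT and WDM, and 2 (1) for arsenite by fraction in WT. Without the low-count filter they were 2 (1) for the lines in arsenite cytosol, 4 (2) for granule against cytosol in WT with arsenite, and 3 (1) and 4 (1) for arsenite by fraction in WT and WDM. Arsenite by fraction in WDM was 2 (1), with ZFP36L2 beside ELAVL1, under RLE factors, library size alone, the replicate block, the transcript length trend removed and DESeq2. The trend removed also gave 2 (1) for granule against cytosol in WDM with tetracycline, and DESeq2 gave 0 (1) for the lines in arsenite cytosol. The cause was not tested.

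With each library left out, the calls ranged from 1 to 4 for arsenite in WT cytosol, 2 to 3 in WDM, 3 to 4 for WDM arsenite against untreated, 0 to 3 for the lines in tetracycline cytosol, 0 to 1 for the lines in arsenite cytosol and in arsenite granules, 4 to 5 for arsenite in WT granules, 2 to 5 and 1 to 2 for granule against cytosol with tetracycline in WT and WDM, 2 to 3 with arsenite in each line, 1 to 2 for arsenite by fraction in WT and 0 to 4 in WDM.

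In 15 of 17 comparisons at least 1 pair of same-numbered libraries did not exceed a correlation of 0.1, although other pairs reached up to 0.531 there, and in 2 of 17 every library correlated best with its own number. The replicate block called ZFP36L1 in 3 more comparisons, WT arsenite against untreated (0.63), the lines in arsenite cytosol (0.56, which made 2 calls where 1 was reported) and granule against cytosol in WT with tetracycline (0.59), and ZFP36L2 for arsenite by fraction in WDM (0.89). It lost no call. Over all genes, tetracycline in WT cytosol called 886 genes, 189 to 1766 with a library left out, 220 when the fit held no other groups, and 2384 without replicate 1 of both tetracycline groups. In the fit of only the groups compared, arsenite called 2737 genes in WT cytosol (4838 reported) and 1921 in WDM (4804), and the lines differed in 5463 when untreated (1631) and in 852 with tetracycline (2108). Without those replicates arsenite called 7497 in WT cytosol. With a library left out, tetracycline called 422 to 771 in WDM cytosol (1050), and arsenite called 2440 (without tetracycline replicate 3) to 7204 (without tetracycline replicate 1) in WT cytosol, 2490 (without tetracycline replicate 2) to 5251 in WDM cytosol, and 3157 (without tetracycline replicate 3) to 5418 in WT granules (5620). The lines differed in 929 to 1212 genes when untreated, 1209 to 4573 with tetracycline, 1094 to 2205 with arsenite in cytosol (1726), and in granules 570 to 1330 with tetracycline (1019) and 569 to 1719 with arsenite (1460). Depth limits ZFP36 most, at 9 to 28 reads per untreated library.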

Other observations

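Genes whose 3′ UTRs hold the heptamer TATTTAT were described as a class, because the members bind such sites. In WT granules the median log2 change with arsenite was -0.05 over 8720 genes with 0 matches, 0.07 over 2783 with 1, 0.20 over 1136 with 2 and 0.20 over 1006 with 3 or more. Called higher were 15.0%, 23.5%, 31.9% and 31.6% of them. In WDM granules the medians were -0.0042, 0.01, 0.04 and -0.02, and 19.3%, 21.9%, 23.1% and 19.5% were called higher. In cytosol the medians over the same classes lay between -0.08 and 0.05 in both lines.

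The classes differ in 3′ UTR length, with medians of 850.5, 2064, 2922.5 and 4483.5 bases in the granule comparisons. Among genes with a 3′ UTR of 1500 to 3000 bases, WT granules had medians of 0.09 over 1782 genes with 0 matches and 0.21 over 574 with 2 or more, with 22.2% and 31.5% called higher. In WDM granules the same classes had 0.13 and 0.01, with 24.6% and 20.2% called higher. These are descriptions over genes, which are not replicates, and the difference between the lines was not tested.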
